A study of Saccharomyces cerevisiae with 3 samples.

Results

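The proteasome genes of budding yeast (Saccharomyces cerevisiae) were examined in a microarray study of caspofungin exposure. They are the 14 subunits of the 20S core, 10 subunits of the 19S base, 8 subunits of the 19S lid, the transcription factor gene RPN4, the assembly factor gene UMP1 and the activator gene BLM10. These 35 genes were taken by name through the RefSeq gene table, out of 6174 genes on the arrays, and not by a threshold on measured values. Each gene had 1 row in the table except BLM10, which had 2. The 3 arrays analysed here are 2-colour arrays, numbered 1, 2 and 4 in the labels. Each carried RNA of yeast exposed to caspofungin at 15 ng/ml for 2 hours in one dye, and RNA of the untreated part of the same culture in the other. Both parts were the strain labelled WSC1extMID2cyt on the BY4741 background, grown in YEPD, a rich medium, at 24 °C. The strain's label names WSC1 and MID2, genes of sensors of cell wall stress, so treated and untreated cells share this alteration and neither is a wild-type strain. Caspofungin is an antifungal drug that blocks synthesis of the wall polymer beta-1,3-glucan. Arrays 2 and 4 carried the RNA of treated cells in Cy5, and array 1, with the dyes swapped, carried it in Cy3. RNA came from whole cultures, so a difference in all cells and a difference in some cells cannot be told apart.

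The proteasome degrades proteins that carry ubiquitin chains. Its 20S core is a barrel of alpha rings at the ends and beta rings inside, and the beta rings hold the active sites. The 19S regulatory particle caps the barrel: its base unfolds substrates with a ring of ATPases, and its lid removes ubiquitin. In yeast the factor Rpn4 activates most of these genes together and is itself degraded by the proteasome, which forms a feedback loop. Rpn4 binds a short promoter element, PACE, found in front of most proteasome genes. Promoter and protein sequences were not used here.

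The values are log2 ratios of both dyes as the authors deposited them, so 1 unit is a 2-fold difference if the base is 2, as was assumed. Whether a positive ratio means more RNA in treated cells or in untreated cells is not given in the sources used here, and every side named below carries that limit. Whether the swapped array 1 was already turned to the direction of the others is also not stated. Its ratios correlated positively across genes with those of array 2 (r = 0.58 over 1863 genes). With those of array 4 the correlation was close to 0 (r = 0.07 over 616 genes). Arrays 2 and 4, which share a dye orientation, correlated positively with each other (r = 0.53 over 590 genes). The ratios of array 1 were used as deposited. Genes are not independent replicates, so these are descriptions. A value was present for 2520 genes on array 1, 1924 on array 2 and 741 on array 4. Over all genes the ratios had medians of -0.20, -0.22 and 0.09 on arrays 1, 2 and 4. Of the mating type markers, 3 of 6 for MATa cells, the mating type of BY4741, had a value, and 0 of 4 for MAT alpha cells did. A log ratio does not give a level, and 3473 of the 6174 genes had no value, so the cell type was not checked by these markers.

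Proteasome genes were covered far more densely than genes in general. On array 1, 29 of the 35 members had a value (82.9%, against 40.8% of all genes), on array 2 28 did (80%, against 31.2%), and on array 4 17 did (48.6%, against 12.0%). In all 14 members had values on 3 arrays, 14 on 2 arrays, 4 on 1 array and 3 on none. The 4 with a single value were SCL1, PRE9 and RPN4, seen on array 4 alone, and PRE1, seen on array 1 alone. The 3 with none were UMP1, which helps the core to mature, BLM10, which caps the core in place of the 19S particle, and the base ATPase gene RPT3.

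**Figure D1:**
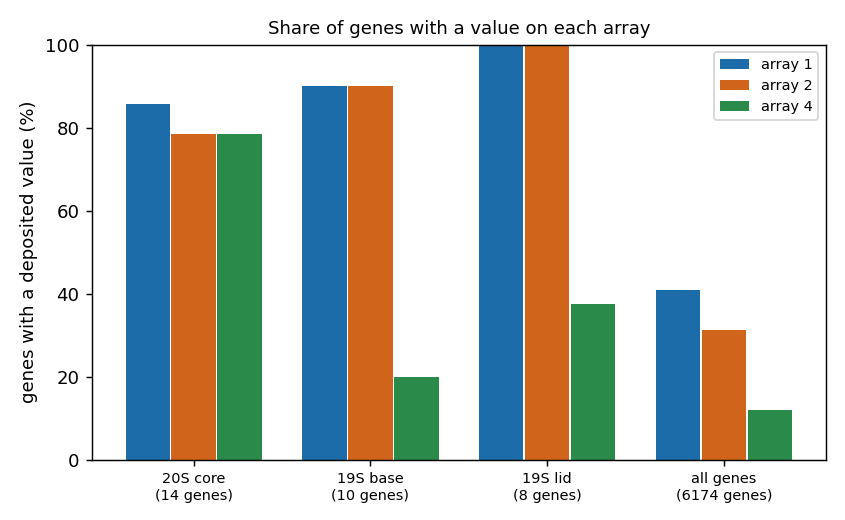
Percent of genes with a deposited value (vertical axis) for the 20S core, the 19S base, the 19S lid and all genes, with 1 bar per array. Array 4 held values for 11 of 14 core genes but for 2 of 10 base genes and 3 of 8 lid genes.

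Coverage on array 4 split the complex. The core kept 11 of 14 genes there, including all 7 alpha ring genes, while the base kept 2 of 10, RPN10 and RPN13, and the lid 3 of 8, RPN7, RPN9 and RPN12. None of the 6 base ATPase genes had a value on array 4. Gene length moved with this split: members with a value on array 4 had a median length of 783 bases and members without one 1305 bases in the RefSeq table, whose lengths are mostly coding sequence. Over all genes with a length the medians were 926 bases with a value on array 4 (704 genes) and 1305 bases without (4972 genes). No such gap was seen on array 1 over all genes, where genes with a value had a median of 1277 bases and genes without one 1206 bases. Among the 818 genes in the core's range of lengths, 597 to 867 bases, 21.4% had a value on array 4. Among the 476 genes in the ATPases' range, 1218 to 1404 bases, 11.3% did. The part of gene length in which members had a value was not tested. Statements on array 4 below therefore concern mainly the core.

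None of the 14 proteasome genes with values on all 3 arrays passed the test for a difference between treated and untreated cells. The other members were not in this test. Each gene with values on all 3 arrays was tested against 0 with limma, once with array 1 averaged with array 2 and once with array 1 averaged with array 4. By the series' design, array 1 came from the same culture as either array 2 or array 4, without a label to settle it. The larger of both p-values was adjusted by the Benjamini-Hochberg method over all 585 such genes, and 0% of them passed a threshold of 0.05. At an unadjusted p under 0.05 there were 0 of the 14 members, against 11.5% of the 585 genes. The smallest adjusted p among members was 0.541, for RPN10, and the largest 0.993, for PUP2, PRE5, PRE10 and PUP3. With 2 cultures the intervals were wide, so a miss does not show that treated and untreated cells were alike. For the alpha5 gene PUP2, with nearly equal ratios on all arrays, the 95% interval of the log2 ratio still ran from -0.61 to 0.72.

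The same held in broader fits. With genes on at least 2 arrays and each array as a separate replicate, 0 of 28 members passed, against 2.53% of 1899 genes. Without array 4, 0 of 28 members passed, against 11.2% of 1863 genes. In both fits arrays that may share a culture count separately, so p-values may be too small. At least 2-fold in the mean over 2 or 3 arrays was reached by 0 of 28 members on either side, where 2.95% of genes reached it on the positive side and 2.9% on the negative side. The members' means ran from -0.31 for RPN8 to 0.77 for PUP1, with a median of 0.04. The median over all 1899 genes was -0.19, with an interquartile range from -0.44 to 0.10. Members lay above the median of all genes in 24 of 29 cases on array 1, 20 of 28 on array 2 and 12 of 17 on array 4. Centring each array on its own median moved their ratios up by 0.20 on array 1 and 0.22 on array 2, and down by 0.09 on array 4.

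**Figure D2:**
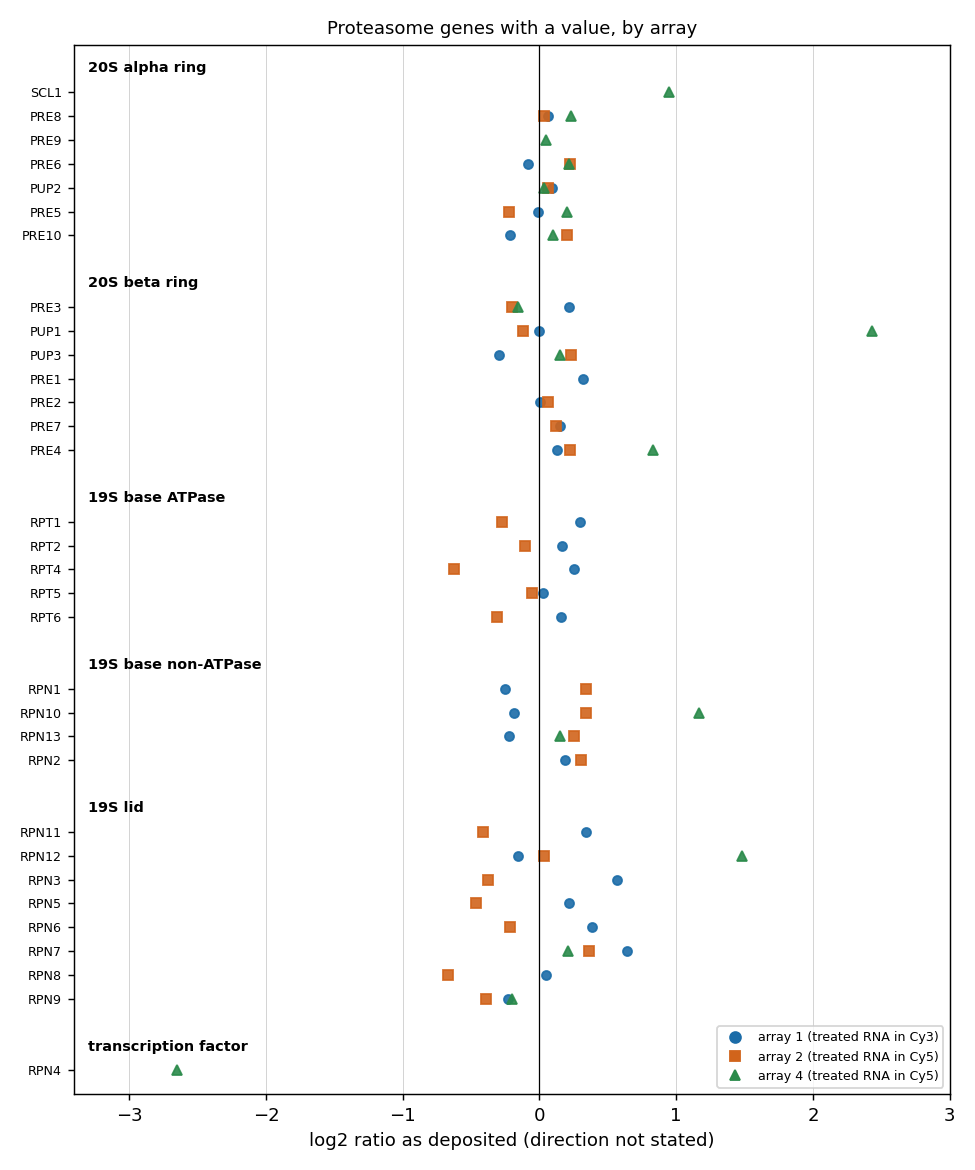
Log2 ratio as deposited (horizontal axis) of the 32 proteasome genes with a value, grouped by sub-complex, with 1 symbol per array. Core genes lie on both sides of 0, from -0.29 to 0.32 on array 1 and from -0.22 to 0.23 on array 2. ATPase and most lid genes lie to the right on array 1 and to the left on array 2. The far points, PUP1, RPN12, RPN10 and RPN4, come from array 4.

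The alpha rings, which form the gates of the barrel, lay close to 0 on arrays 1 and 2, where no gene exceeded 0.23 in size. PUP2 had 0.09, 0.06 and 0.03 on arrays 1, 2 and 4, and PRE8, the alpha2 gene, had 0.06, 0.03 and 0.23. Both were positive on every array. PRE6 (alpha4) had -0.09, 0.23 and 0.21, a mean of 0.12 ± 0.18 (SD, n = 3 arrays). PRE5 (alpha6) had -0.0090, -0.22 and 0.20, and PRE10 (alpha7) had -0.22, 0.20 and 0.10, so the arrays disagreed in sign for these 3 genes. On array 4 alone SCL1 (alpha1) had 0.95, above 89.6% of the genes on that array, and PRE9 (alpha3), the gene of an alpha subunit that yeast can live without, had 0.05. All 7 alpha genes were positive on array 4, as were 56.7% of all 741 genes there. Their median was 0.20, against 0.09 over all genes on that array. With array 4 centred on its own median, PUP2 (-0.06) and PRE9 (-0.04) were negative and the other alpha genes stayed positive. On arrays 1 and 2 the medians of the alpha genes were -0.0090 and 0.06 over 5 genes each.

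The beta rings carry the 3 peptidase activities, and their genes had both the lowest and the highest mean ratios of the core. PRE2 (beta5), the subunit that cuts after hydrophobic residues, had 0.0023 on array 1 and 0.06 on array 2. PRE3 (beta1), which cuts after acidic residues, had 0.22, -0.20 and -0.16 on arrays 1, 2 and 4, a mean of -0.05 ± 0.23 (SD, n = 3). PUP1 (beta2), which cuts after basic residues, had -0.0058, -0.12 and 2.43. Its mean of 0.77 ± 1.44 (SD, n = 3, limma adjusted p = 0.633) rests on array 4, where it was the fourth highest of 741 genes, and without that array it was -0.06. The peptidase genes PRE2 and PRE3 showed nothing of that size, though PRE2 had no value on array 4. Of the subunits without peptidase activity, PRE4 (beta7) was positive on all arrays at 0.13, 0.22 and 0.83, a mean of 0.39 ± 0.38 (SD, n = 3, limma adjusted p = 0.579). PRE7 (beta6) had 0.15 and 0.12 on arrays 1 and 2. PUP3 (beta3) had -0.29, 0.23 and 0.15, and PRE1 (beta4) had 0.32 on array 1 alone. PRE7 and PRE4 were the beta genes that lay on one side on arrays 1 and 2 at above 0.1 on each.

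The 6 ATPases Rpt1 to Rpt6 form the ring that unfolds substrates and threads them into the core. The 5 genes with values all lay on the positive side on array 1 and on the negative side on array 2, and 3 of the 5 still did with each array centred on its own median. RPT4 had 0.26 on array 1 and -0.63 on array 2, a difference of 0.88. RPT1 had 0.30 and -0.27, and RPT6 had 0.15 and -0.31. These 3 genes differed between arrays by more than 0.4, and their means, -0.19, 0.01 and -0.08, had SDs of 0.62, 0.40 and 0.33 (n = 2). RPT2 had 0.16 and -0.11, and RPT5 0.02 and -0.05, both close to 0 on either array. Among all 1863 genes on both arrays, 14.9% were positive on array 1 and negative on array 2, and 19.3% were after centring.

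Of the 4 base subunits that are not ATPases, 3 lay the other way round, and 2 did after centring. RPN1, RPN10 and RPN13 encode the proteasome's ubiquitin receptors, and all 3 were negative on array 1 and positive on array 2. This pattern was held by 12.6% of all genes. After centring it was held by RPN1 and RPN13 but not RPN10, and by 15.5% of all genes. RPN1 had -0.25 on array 1 and 0.34 on array 2. RPN10 had -0.18, 0.34 and 1.17 on arrays 1, 2 and 4, and RPN13 had -0.22, 0.26 and 0.15. Their values on array 2 lay in a narrow band, and RPN10 stood out on array 4, above 93.3% of genes there. The mean of RPN10 was 0.44 ± 0.68 (SD, n = 3, limma adjusted p = 0.541), and it was 0.08 without array 4. RPN2, the scaffold on which Rpn13 docks, was positive on both arrays at 0.19 and 0.30, a mean of 0.24 ± 0.08 (SD, n = 2). Between the 4 non-ATPase genes and the 5 ATPase genes the medians differed by -0.36 on array 1 and by 0.59 on array 2, so the order of both parts of the base was exchanged between arrays.

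Most lid genes lay on the same sides as the ATPase genes. RPN11, the metalloprotease that removes ubiquitin from substrates, had 0.34 on array 1 and -0.41 on array 2. RPN8, its catalytically inactive partner, had 0.05 and -0.67. RPN3 had 0.57 and -0.38, the widest gap among members at 0.95. RPN5 had 0.22 and -0.46, and RPN6, whose product clamps the lid to the core, had 0.38 and -0.22. These 5 of 8 lid genes were positive on array 1 and negative on array 2, against 14.9% of all 1863 genes. After centring 4 of 8 were, against 19.3% of all genes. The means of the 5 genes, from -0.31 for RPN8 to 0.09 for RPN3, had SDs of 0.42 to 0.67 (n = 2). RPN12 had -0.16, 0.04 and 1.48 on arrays 1, 2 and 4, so its mean of 0.45 ± 0.90 (SD, n = 3, limma adjusted p = 0.595) also rests on array 4, and it was -0.06 without it.

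Only RPN7 and RPN9 among lid genes kept one side on all their arrays, and they lay on opposite sides. RPN7, one of the structural subunits of the lid, had 0.64, 0.36 and 0.21 on arrays 1, 2 and 4, a mean of 0.40 ± 0.22 (SD, n = 3). In the pairing with the larger p its mean was 0.36 (limma adjusted p = 0.642, 95% interval -0.32 to 1.03). RPN7 was the highest member on arrays 1 and 2. RPN9, a lid subunit that yeast can grow without, had -0.23, -0.39 and -0.20, a mean of -0.27 ± 0.10 (SD, n = 3). Its mean in the pairing with the larger p was -0.26 (limma adjusted p = 0.722, 95% interval -0.92 to 0.41). RPN9 was the one member negative on all 3 arrays, 1 of 14, against 29.1% of the 585 genes. PRE8, PUP2, PRE4 and RPN7 were positive on all 3, 4 of 14, against 18.1%. These counts depended on centring, after which 8 of 14 members were positive on all 3 arrays, against 26% of genes, and 1 of 14 negative, against 19%. PUP2 left the first group, being negative on array 4, and PRE6, PRE5, PUP1, RPN10 and RPN12 joined it.

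**Figure D3:**
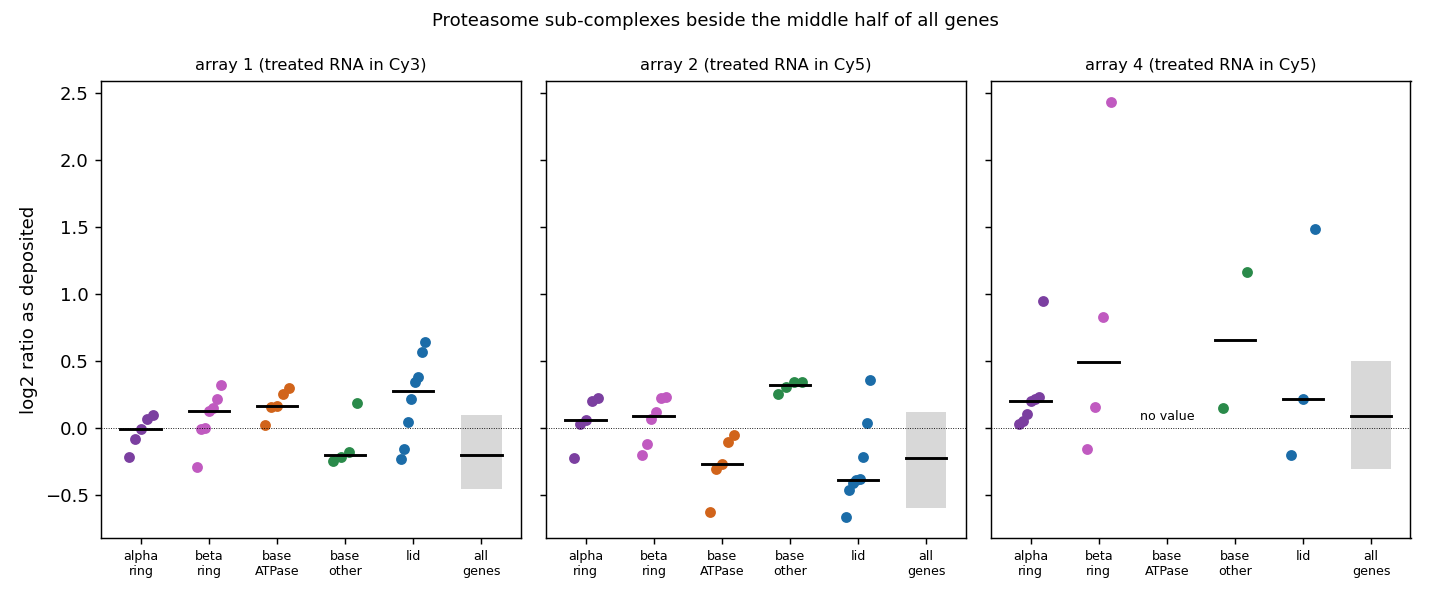
Log2 ratio as deposited (vertical axis) of single genes by sub-complex, 1 panel per array, with a bar at each median; the grey box spans the interquartile range of all genes on that array and the bar in it is their median. The medians of the ATPase and lid genes sit above that of the non-ATPase base genes on array 1 and below it on array 2, while single genes overlap.

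Core, lid and base were then compared on each array. On array 1 the median log2 ratio was 0.03 for the core (12 genes), 0.15 for the base (9 genes) and 0.28 for the lid (8 genes). On array 2 it was 0.06 for the core (11 genes), -0.05 for the base (9 genes) and -0.39 for the lid (8 genes). The lid was thus the highest of the 3 on array 1 and the lowest on array 2. The core exceeded the lid by -0.25 on array 1, 0.45 on array 2 and -0.01 on array 4. On array 4 the medians were 0.20 for the core (11 genes), 0.66 for the base (2 genes) and 0.21 for the lid (3 genes), and the values for base and lid rest on few genes. The core was the most even of the 3 on arrays 1 and 2, with an SD across genes of 0.17 on each, while the lid had 0.32 on each and the base 0.21 and 0.35. Over all genes it was 0.55 on array 1 and 0.73 on array 2.

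Averaged over arrays, the medians of the sub-complexes lay close together. Over genes on at least 2 arrays the median of the mean ratio was 0.06 for the core (11 genes), 0.03 for the base (9 genes) and 0.02 for the lid (8 genes). Of the gene means, 9 of 11 were positive in the core, 6 of 9 in the base and 4 of 8 in the lid, against 32.9% of all 1899 genes. The median SD between arrays was 0.21 in the core, 0.33 in the base and 0.49 in the lid, against 0.28 over all genes. These medians cover unlike arrays, since 9 of the 11 core genes but 3 of the 8 lid genes had a value on array 4, and single genes overlapped, with PUP1 of the core at 1.44 and RPN9 of the lid at 0.10.

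**Figure D4:**
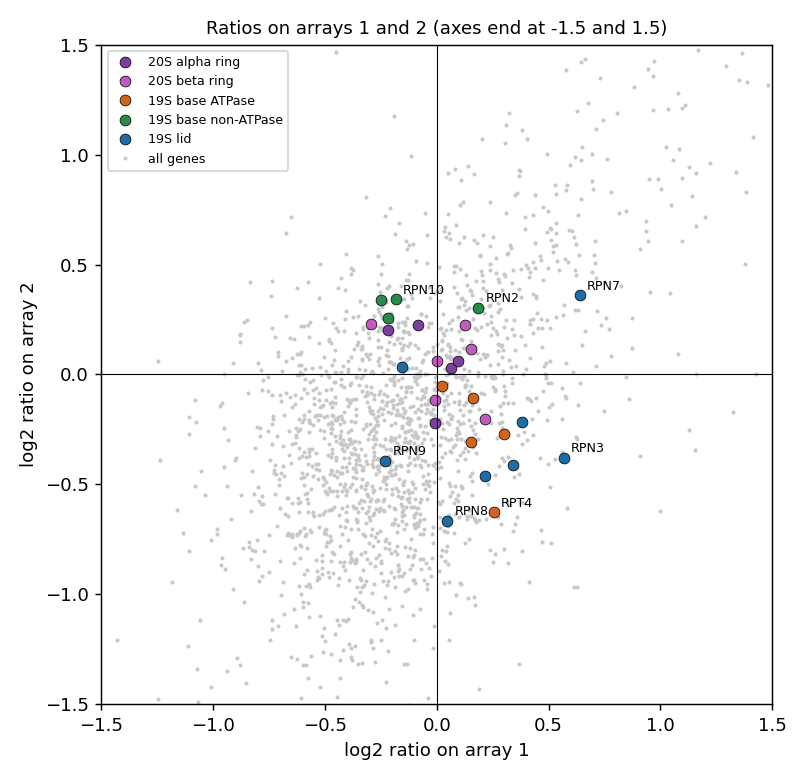
Log2 ratio on array 1 (horizontal axis) against array 2 (vertical axis) for 1863 genes in grey, with the 28 proteasome genes in colour by sub-complex; all 28 lie within the axes, which end at 1.5 on each side and leave out 81 of the other genes. All genes run from lower left to upper right (r = 0.58), while the 5 ATPase genes and 5 of 8 lid genes lie at the lower right and RPN1, RPN10 and RPN13 to the upper left.

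Members and all genes differed in how arrays 1 and 2 related. Across the 28 members with both values Pearson's r was -0.35 and Spearman's rho -0.40, against 0.58 and 0.47 across all 1863 genes. The sub-complexes differed in this: r was -0.46 in the core (11 genes) and -0.76 in the base (9 genes), but 0.31 in the lid (8 genes). The members share both hybridisations, span a narrow range and were not compared by a test. On opposite sides of 0 were 18 of the 28 members, against 27.5% of all genes. Of these 18, 14 were among the 17 genes of base and lid and 4 among the 11 of the core. This count depended on where 0 was set: with each array centred on its own median it was 11 of 28, against 34.8% of all genes, a share near the background. Base and lid then held 9 of the 11. The correlation does not change with centring. Arrays 1 and 2 carried the dyes in opposite orientation, and if array 1 had not been turned by the authors, turning it would place 18 of 28 members on one side on both arrays and give all genes r = -0.58. The part of the dyes in these differences was not tested.

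RPN4, the gene of the factor that activates the others, had a single value, -2.65 on array 4. It was the tenth lowest of 741 genes there, and 13.9% of genes were at -1 or below. Of the 17 members with a value on that array 14 were positive, against 56.7% of all genes there, and 3, PUP1, RPN12 and RPN10, were at 1 or above, against 9.72% of genes. The value of RPN4 has no replicate. Genes measured on array 4 alone, of which there were 120, spread more widely on it (SD 1.36) than the 585 genes measured on all arrays (SD 0.79). The 5th percentile of those 120 genes was -2.69, below the value of RPN4. The regulators of RPN4 on the list examined, PDR1, PDR3, YAP1 and HSF1, had no value, nor did UBR2, a ligase for Rpn4. MUB1, the partner of Ubr2, had 0.83 on array 2 alone.

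Other genes of the ubiquitin and proteasome pathway were examined from lists of 51 genes, of which 50 had a row and 29 a value. On at least 2 arrays 20 were measured, with a median mean ratio of -0.02. On every array that measured them 6 were positive and 7 were negative, and 0 of the 5 with values on all 3 arrays passed the limma test. For the proteasome genes on at least 2 arrays these counts were 7 positive and 1 negative of 28, against 18.5% positive and 45.9% negative of all 1899 genes. After centring they were 14 positive and 1 negative of 28, against 30.7% and 28.6% of genes.

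Among suppliers of ubiquitin, UBI4, the stress-induced polyubiquitin gene, was highest, at 0.51 on array 1 and 0.66 on array 2. UBA1, the ubiquitin-activating enzyme gene, had 0.40 and 0.02. The ubiquitin fusion genes RPL40A and RPS31 averaged -0.19 ± 0.17 (SD, n = 2) and -0.02 ± 0.19 (SD, n = 3). UBI4 alone of these 4 lay past 0.5 on both its arrays. CDC48, the ATPase that extracts ubiquitylated proteins for the proteasome, had 0.87 on array 1 and 0.26 on array 2, and its cofactor gene NPL4 had 0.49 and -0.02. The shuttle genes DSK2 and RAD23 averaged 0.23 ± 0.05 and -0.08 ± 0.25 (SD, n = 2 each).

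Conjugating enzymes and ligases lay on both sides of 0. RAD6 had -0.41 on array 1 and -0.55 on array 2, and its partner ligase UBR1, which reads destabilising amino termini, had -0.75 and -0.26. Both genes of this pair were thus negative on both arrays, as were 52.6% of all 1863 genes. CDC34, the conjugating enzyme of SCF ligases, had 0.25, -0.06 and -1.20 on arrays 1, 2 and 4, and UBC13, which builds ubiquitin chains used in signalling, had 0.15, 0.15 and 0.93. Their means were -0.34 ± 0.76 and 0.41 ± 0.45 (SD, n = 3 each, limma adjusted p = 0.612 and 0.558), and array 4 held the far value in both. The 3 ligase genes measured on at least 2 arrays, UBR1, UFD2 and RSP5, were negative on all their arrays, as were 45.9% of all 1899 genes. UFD2, at -0.0048 and -0.07 on arrays 1 and 2, lay above the medians of all genes there, -0.20 and -0.22. RSP5 did so on array 1, at -0.02, but not on array 2, at -0.41. Assembly chaperones had values for 5 of 8 genes, mostly on array 1 alone, where 67.5% of all genes were negative, and all 5 were negative, from -0.56 for POC4 to -0.15 for NAS6. ADD66, seen on 2 arrays, averaged -0.27 ± 0.12. UBP6, the deubiquitinase bound to the base, had -0.28, -0.33 and 0.09.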

How the data were processed

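Total RNA of treated and untreated cells was labelled by reverse transcription with Cy3 or Cy5 and co-hybridised, per the labels' protocols. The deposited values are log2 ratios as the authors prepared them (base 2 assumed); the sources used here do not give scanner, normalization, centring, direction or spot filter. Depth does not apply; the number of arrays limits the precision. Of 6209 rows, 5654 were matched by locus tag and 57 by synonym to RefSeq genes (assembly R64), and 498 kept the file's name. Rows of a gene were averaged. No coordinates are printed, because the array's build is not stated.

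Tests used limma 3.58.1 in R 4.3.3 (lmFit, eBayes) on the 585 genes measured on 3 arrays, with 1 residual degree of freedom and a prior of 4.96 or 2.7 in each pairing. Intervals come from the pairing with the larger p. Arrays may share cultures, so p-values measure partly technical spread. The script was checked on simulated data for the signs of changed genes and for false calls. That check set no requirement on how many changed genes passed. Members and lists were chosen with earlier results of these data known; all members with a value are named, and other pathway genes from fixed lists. Alternatives were each pairing alone, arrays as separate replicates, a dye term, robust or no moderation, genes on at least 2 arrays, centring, scaling, array 1 turned, and each array left out.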

Additional observations from a re-analysis of the deposited data

How the results depend on the processing

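No tested member passed under any of the 13 alternatives to the test, each of which covered 14 or 28 members. Over all genes the count of 0 became 2 with 3 separate replicates or with a dye term added to them, 17 with each array scaled, 48 with genes on at least 2 arrays, and 0 to 209 with 1 array left out. After centring the medians were 0.22 for the core, 0.23 for the base and 0.24 for the lid. The core's median of 0.06 was 0.033 to 0.15 with 1 array left out. The base's median of 0.03 was 0.018 to 0.48 with 1 array left out, the highest from 2 genes, and -0.04 with array 1 turned. The lid's median of 0.02 was 0.40 over the 3 members on all arrays, -0.048 to 0.43 with 1 array left out, and -0.32 with array 1 turned. The count of members on opposite sides on arrays 1 and 2, 18 of 28, was 11 after centring and 10 with array 1 turned; members positive on all 3 arrays were 4 and after centring 8 of 14, and members positive on all their arrays 7 and after centring 14 of 28. These settings were chosen after seeing the data. Members' means changed sign for 7 of 28 after centring, 7 of 28 with array 1 turned, 2 of 28 after scaling, and, leaving out an array, for 5 of 28 (array 4), 5 of 14 (array 2) and 0 of 14 (array 1). Each ratio is already the difference within a pair of treated and untreated parts of a culture, so the tests above are paired and no further replicate block could be added. Spot intensities were not used here, so signal over background is unknown.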
